A study of Mus musculus with 2 samples.

Results

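The potassium channel genes described here are the genes of the platform annotation whose single symbol starts with Kcn, chosen by name alone. They number 84 of 18193 named genes on the array and are represented by 167 probe sets. The name takes in 81 genes of channel subunits and their auxiliary proteins and 3 noncoding genes, the imprinted transcript Kcnq1ot1 and the antisense transcripts Kcnmb4os1 and Kcnmb4os2. Expression was measured in cerebral cortex of male mice aged 4 weeks on 2 Affymetrix arrays. One array received RNA mixed from 3 wild-type mice, and the other received RNA mixed from 3 mice titled as knockouts of Gnmt, which encodes glycine N-methyltransferase, an enzyme that uses S-adenosylmethionine to methylate glycine. Both pools have the strain entry 129/B6, and no treatment is given for either. The second sample is called by its title here, since its own genotype field says wild-type.

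With 1 array per title there was no replicate. No difference was tested, precision is limited by having so few arrays, and the pooling hides the spread between mice. Measured probe sets are those that reached, on both arrays, a floor of 64.2 units (40th percentile over the non-control signals). Ratios are log2 of the knockout-titled over the wild-type signal, centred on the median of all measured probe sets, and a gene is represented by its brightest probe set, that with the largest mean of both log2 signals. Members were counted from 1.5-fold, which is close to the error of a single probe set. That error was estimated from the 2 brightest probe sets of a gene on the same RNA. It is the SD of their difference in log2 ratio divided by the square root of 2, and was 0.58 or 1.49-fold over 5375 genes. The SD of the difference itself is larger. Pairs of signals are given with the wild-type pool first. Signals of different probe sets are not levels that can be set against each other.

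Gnmt itself has 1 probe set, which read 10 units (wild-type) and 21.5 units (knockout-titled), both below the floor, so it checked neither label. The pan-neuronal markers were all present, 6 of 6 measured, with a median log2 ratio of -0.22. Of the excitatory cortical markers, 5 of 6 were measured, with ratios from -1.61 (Neurod6) to 1.06 (Tbr1). Of 7 listed pituitary genes 6 were on the array, and their signals summed to 31334.5 units (wild-type) and 724.7 units (knockout-titled). The part of that tissue in the ratios below was not tested.

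Potassium channels let potassium leave neurons and glia and so set the resting potential and end the action potential. Voltage-gated (Kv) channels are built from alpha subunits that open on depolarisation and from auxiliary subunits that alter their traffic and gating. Inward rectifiers and two-pore channels carry current near rest, while calcium- and sodium-activated channels follow ion entry during firing. In cortex, Kv1 channels sit near axon initial segments and nodes, Kv3 channels serve fast-spiking interneurons, Kv4 channels carry the dendritic A-type current and Kv7 channels carry the M-current.

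Of the 84 genes, 60 were measured on both arrays, 8 were above the floor on 1 array only and 16 on neither. Of the 60, 6 had a signal higher by 1.5-fold or more in the knockout-titled pool, which is 10% of them against 12.5% of all 12251 measured genes. Another 10 were at least 1.5-fold lower, 16.7% of them against 18.3% of all genes. The median log2 ratio was -0.11, beside -0.06 over all genes, and the SD was 0.66, beside 0.64. Both shares lie near the background and are not a result about these genes as a group. At 2-fold the counts were 2 higher (3.47% of all genes) and 3 lower (6.74%). Just past the 1.5-fold limit (0.58 on the log2 scale), and so counted, were Kcnip4 at 0.62, Kcnh1 at 0.63 and Kcna5 at 0.64. Just short of it were Kcne4 at 0.53, Kcna4 at 0.52 and Kcnt2 at -0.50.

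**Figure D1:**
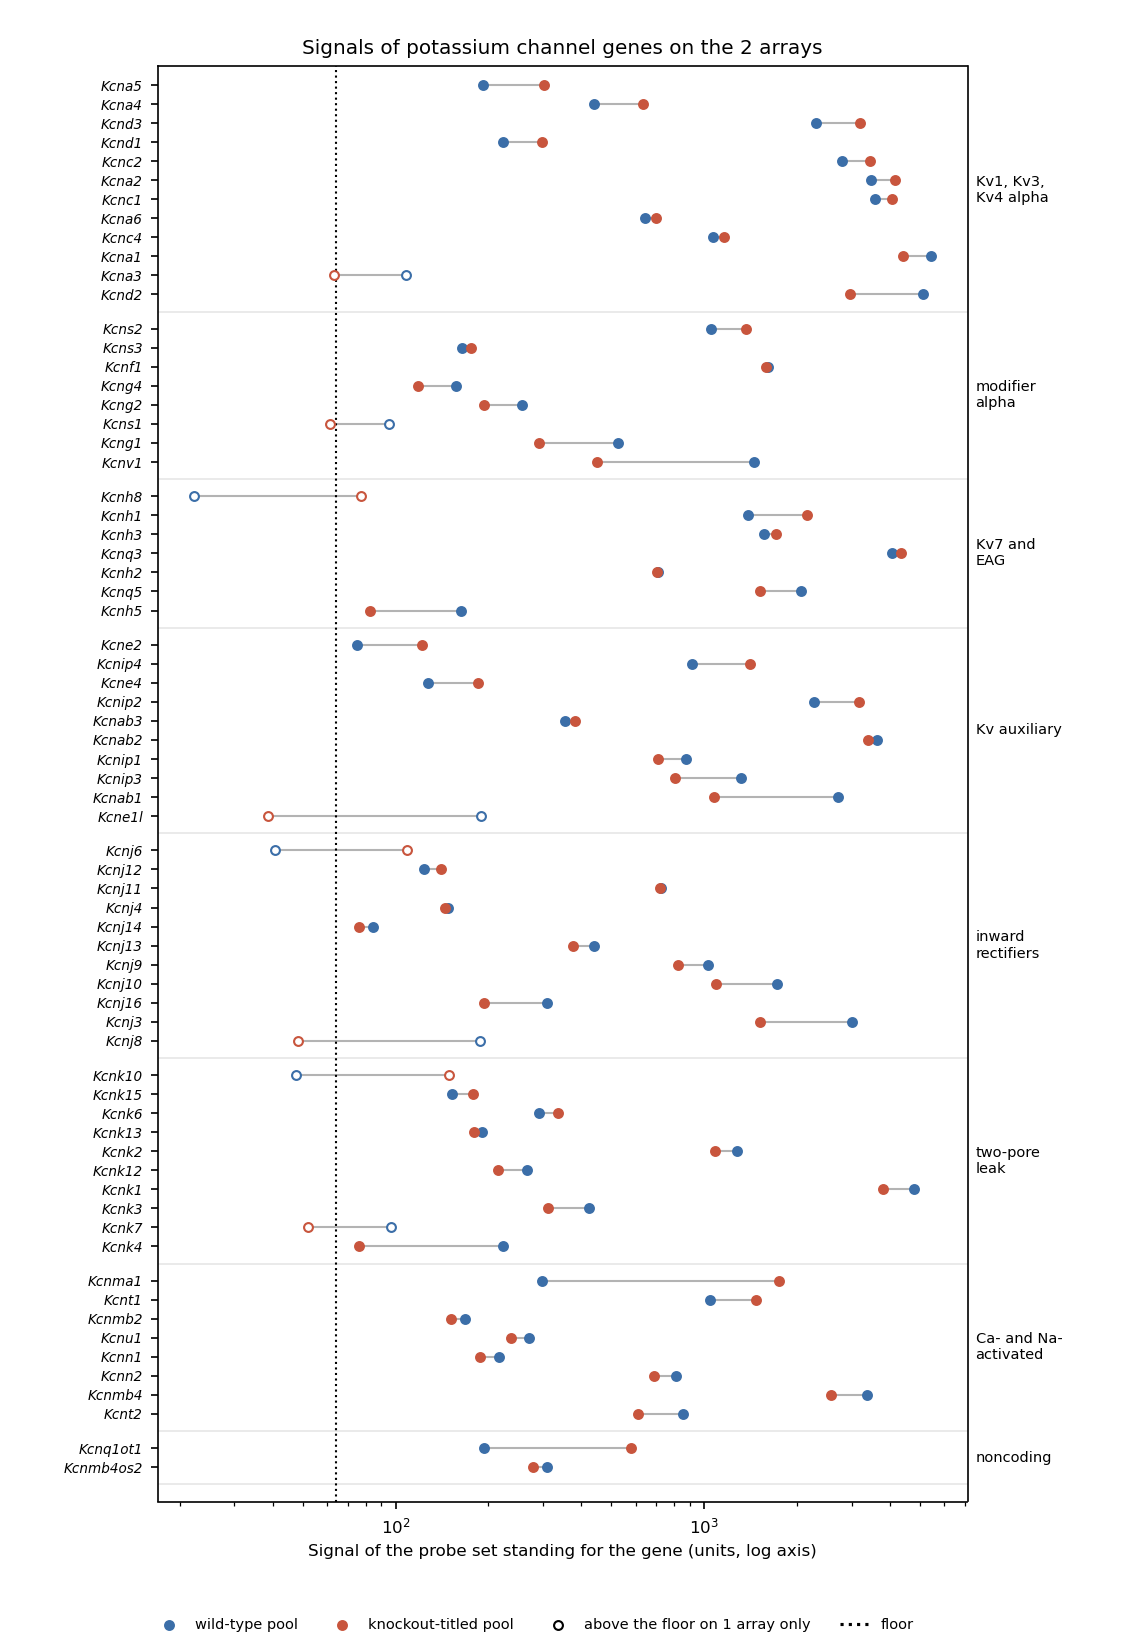
Signal (units, log axis) of the probe set standing for each of the 68 potassium channel genes above the floor on at least 1 array, by class, in the wild-type pool (blue) and the knockout-titled pool (red); there is 1 array each and no error bar. Open points mark the 8 genes above the floor on 1 array only. Kcnma1 runs furthest to the right in the knockout-titled pool, from 298.0 to 1744.4 units, and Kcnv1 furthest to the left, from 1453.1 to 449.3 units, among the genes measured on both arrays.

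Kcnma1, which encodes the pore-forming subunit of the large-conductance calcium-activated (BK) channel, had the highest ratio. Its brightest probe set read 298.0 units in wild-type and 1744.4 units in the knockout-titled pool, 5.81-fold more. Other probe sets gave 223.0 and 1487.3 units (6.61-fold) and 251.5 and 753.2 units (2.97-fold). One gave 615.0 and 553.1 units, a log2 ratio of -0.16. The last was above the floor in the knockout-titled pool alone, at 19.7 and 232.2 units. Of the 5 probe sets, 4 were therefore higher in the knockout-titled pool, while the probe set with the highest wild-type signal was within 1.5-fold. Kcnmb4, the BK beta subunit of neurons, had 3357.5 and 2578.7 units, a ratio of -0.39, and Kcnmb2, an inactivating beta subunit, had -0.17. Kcnmb1, the smooth muscle beta subunit, was below the floor in both pools.

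The other calcium- and sodium-activated channels were within 1.5-fold. The class has 11 genes, of which 8 were measured, with a median of -0.21. Of these, 1 was higher and 0 lower, beside 12.5% and 18.3% of all genes. Read by their second brightest probe sets, 4 of the genes had a median of 0.12. Over all 15 measured probe sets of the class the median was 0.03. Of those, 4 were higher and 0 lower, beside 16.5% and 18.1% of all probe sets. The higher ones were probe sets of Kcnma1, at 2.54, 2.73 and 1.57, and of Kcnt1, at 0.90. That count therefore mostly repeats Kcnma1 and does not describe the class. Kcnt1, a sodium-activated channel, had 1044.4 and 1468.3 units, and its 3 probe sets lay between 0.44 and 0.90. Its relative Kcnt2 was the lowest of the class, with 854.9 and 610.7 units and a ratio of -0.50. The small-conductance channels Kcnn1 and Kcnn2, which carry afterhyperpolarisation currents, had -0.21 and -0.25, and Kcnu1, a relative of Kcnma1 known from sperm, had 269.8 and 236.2 units (-0.20).

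Among the voltage-gated subunits, Kcnh1 was higher and Kcnv1 lower by every measured probe set. Kcnh1, an ether-a-go-go (EAG) channel, gave 1386.1 and 2155.6 units by its brightest probe set and 121.4 and 835.4 units by its other one. These are 1.54-fold and 6.82-fold more in the knockout-titled pool, so the direction was shared and the size was not. Kcnv1, a subunit that forms no channel alone and alters Kv2 channels, gave 1453.1 and 449.3 units by its brightest probe set (3.26-fold lower in the knockout-titled pool). Its other probe sets gave 715.3 and 393.4 units (1.83-fold) and 298.3 and 188.5 units (1.60-fold).

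The windows around the annotated starts of 4 members are shown as examples of promoters at either end of the range. They were chosen as the 2 highest and 2 lowest channel genes past 1.5-fold, by median over their measured probe sets, among those with exactly 1 window in RefSeq for GRCm38.p6. Each runs from 250 bases before to 50 bases after the start, 5′ to 3′ on the strand of the gene, with every CG dinucleotide, the site of DNA methylation, in capitals. CG reads alike on both strands. The Kcnma1 window is chr14:24004156-24004455 on the minus strand, and that of Kcnh1 is chr1:192190527-192190826 on the plus strand. The Kcnk4 window is chr19:6934466-6934765 and that of Kcnh5 is chr12:75177283-75177582, both on the minus strand.
Kcnma1: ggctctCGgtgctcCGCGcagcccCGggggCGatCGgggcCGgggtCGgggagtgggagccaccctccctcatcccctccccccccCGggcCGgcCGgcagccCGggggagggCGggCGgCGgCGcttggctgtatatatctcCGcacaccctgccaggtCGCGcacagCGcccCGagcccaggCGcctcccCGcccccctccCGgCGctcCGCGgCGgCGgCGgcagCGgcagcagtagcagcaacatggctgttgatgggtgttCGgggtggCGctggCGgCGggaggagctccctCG
Kcnh1: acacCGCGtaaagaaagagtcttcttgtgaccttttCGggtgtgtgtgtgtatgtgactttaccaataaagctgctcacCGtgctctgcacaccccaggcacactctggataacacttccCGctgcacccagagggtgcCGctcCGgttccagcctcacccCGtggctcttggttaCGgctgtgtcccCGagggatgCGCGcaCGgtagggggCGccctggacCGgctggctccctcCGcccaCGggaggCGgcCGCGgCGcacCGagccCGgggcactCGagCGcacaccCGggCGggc
Kcnk4: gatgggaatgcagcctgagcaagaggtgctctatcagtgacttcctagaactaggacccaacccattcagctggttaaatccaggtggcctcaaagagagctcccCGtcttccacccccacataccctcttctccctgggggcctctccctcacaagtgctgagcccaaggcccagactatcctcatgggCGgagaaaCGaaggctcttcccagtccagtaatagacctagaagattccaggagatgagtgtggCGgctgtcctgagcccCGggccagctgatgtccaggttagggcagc
Kcnh5: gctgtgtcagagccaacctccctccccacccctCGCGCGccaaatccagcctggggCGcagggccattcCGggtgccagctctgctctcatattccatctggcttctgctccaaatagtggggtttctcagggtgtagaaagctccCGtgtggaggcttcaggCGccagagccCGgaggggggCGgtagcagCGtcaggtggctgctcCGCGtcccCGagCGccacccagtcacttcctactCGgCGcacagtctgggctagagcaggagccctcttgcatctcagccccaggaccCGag
The Kcnma1 window holds 36 CG and is 78.0% G or C, and 6.23% of all 32851 windows of this length hold as many or more. The Kcnh1 window holds 27 CG (15.5% of windows hold as many), the Kcnh5 window 17 (31.4%) and the Kcnk4 window 5 (62.0%). Over the 32 measured members with 1 window, the CG count and the log2 ratio were related across genes by r = 0.22 (Pearson) and rho = 0.14 (Spearman), given as a description. Members at least 1.5-fold higher had a median of 18 CG (4 genes), those at least 1.5-fold lower 17 (5 genes) and those between 17 (23 genes). These medians were close, but the counts ran from 4 to 36 CG in the higher members, 5 to 26 in the lower and 3 to 48 in those between. With so few genes, the medians cannot decide whether the contrast between Kcnma1 and Kcnk4 is general. The 89 windows of 64 members held a median of 9 CG, beside 7 over all windows.

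The alpha subunits of the Kv1, Kv3 and Kv4 families had 11 of 13 genes measured; no Kv2 (Kcnb) gene is among the members analysed here. Of the 11, 9 had a ratio above 0, beside 5616 of all 12251 genes, and the median was 0.25. Only Kcna5, a Kv1 subunit, was at least 1.5-fold higher, at 192.7 and 302.7 units (1.56-fold). Kcnd2, the main Kv4 subunit of cortical dendrites, was lower, at 5121.5 and 2968.1 units (1.74-fold). Kcnc1 and Kcnc2, the Kv3 subunits of fast-spiking interneurons, had 0.17 and 0.29. The 8 measured inhibitory neuron markers had a median of -0.18, with 4 above 0 and 4 below, the latter including Pvalb at -0.41. Kcnd3, the other cortical Kv4 subunit, had 2306.3 and 3194.1 units (0.46). Further Kcnd3 probe sets were above the floor in the knockout-titled pool alone, at 32.0 and 167.0 units and at 54.7 and 88.5 units. Of the remaining subunits, Kcna4 had 438.5 and 634.4 units (0.52) and its other probe set 0.61, so it was higher by both, while Kcna6 had 0.11 with its 3 probe sets between 0.08 and 0.73.

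Most dimmer probe sets of these alpha subunits had higher ratios than the brightest one of the same gene. Of 13 measured probe sets other than the brightest, 9 were higher by 1.5-fold or more and 1 was lower; their median was 0.73. Over all 20967 measured probe sets with 1 gene, 16.5% were at least 1.5-fold higher and 18.1% lower, but these include the brightest. By second brightest probe sets alone, 6 of 8 alpha subunits were higher and 1 lower, beside 19.4% and 19.1% of 5375 genes. Kcna1, a Kv1 subunit of axons, gave 5414.7 and 4392.0 units by its brightest probe set, but 1473.2 and 2743.5 units and 929.2 and 3280.2 units by the others. The brightest was thus slightly lower in the knockout-titled pool and the others higher, with log2 ratios of 0.89 and 1.81. Kcnc1 gave 3572.3 and 4055.5 units, 688.9 and 1119.4 units, and 167.2 and 790.8 units, the last a ratio of 2.23. Its remaining probe set was above the floor in the knockout-titled pool alone, at 15.4 and 79.8 units. Kcnc4 and Kcnd1 had second probe sets at 1.14 and 1.31. Kcna2, the partner of Kcna1 in axonal channels, went the other way, with 0.25 by its brightest probe set, at 3458.3 and 4139.4 units, and -1.28 by the next, at 4624.2 and 1925.1 units. Kcnd2 had another probe set at 553.4 and 1275.1 units (1.19), opposite to its brightest. The gene-level values of Kcna1, Kcna2, Kcnc1 and Kcnd2 therefore depended on the probe set read.

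**Figure D2:**
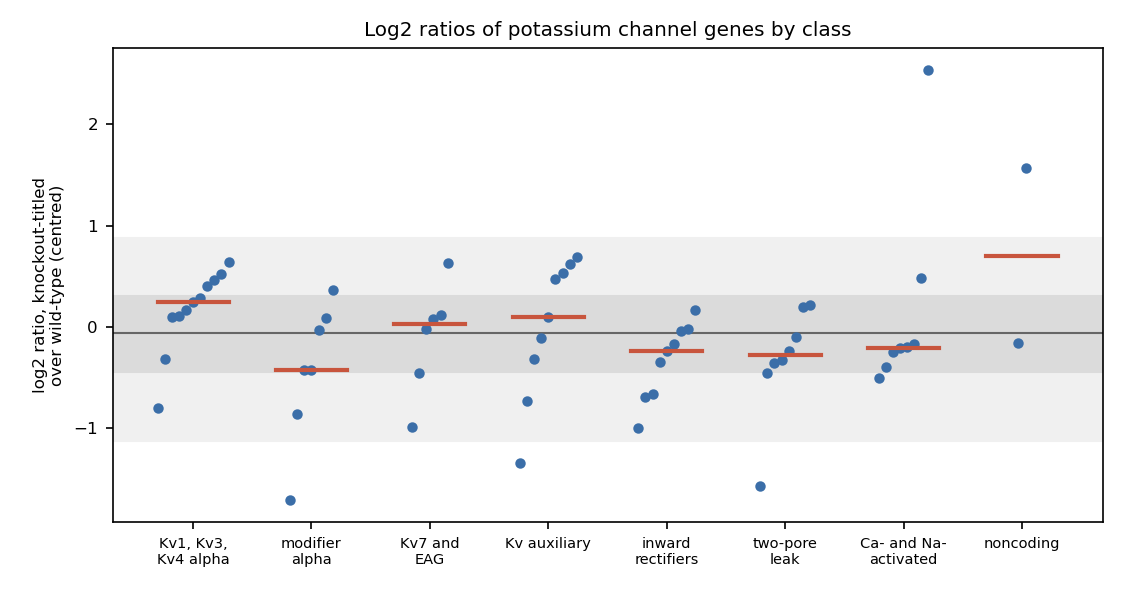
Log2 ratio of knockout-titled over wild-type signal (centred) for each measured potassium channel gene (points, brightest probe set) by class, with the class median (red bar). The line and the dark and light bands give the median, the central 50% and the central 90% of all 12251 measured genes (-0.44 to 0.31 and -1.12 to 0.88). The median of the Kv1, Kv3 and Kv4 alpha subunits is 0.25 and that of the inward rectifiers -0.24.

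The modifier alpha subunits, which assemble with Kv2 subunits, lay mostly below 0. Of 9 genes 7 were measured, with a median of -0.42. Of these, 2 were at least 1.5-fold lower and 0 higher, beside 18.3% and 12.5% of all genes. Over all their measured probe sets 10 of 12 were below 0, beside 10881 of 20967 over all genes. After Kcnv1, Kcng1 was lowest, at 525.2 and 291.3 units (1.82-fold). Kcng2 and Kcng4 had -0.42 each, Kcnf1 had -0.03, Kcns3 had 0.09 and Kcns2 was highest at 0.37.

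The Kv7 and EAG families had 6 of 9 genes measured and a median of 0.03. Kcnq3, a subunit of the M-current channel, had 4072.2 and 4336.3 units (0.08). Kcnq5, another M-current subunit, had -0.45 and -0.75 by its 2 measured probe sets. Kcnh5, a second EAG channel, was lowest at 162.6 and 82.6 units (1.98-fold lower), a single probe set near the floor, while its close relative Kcnh1 was highest. Kcnh2, the ERG channel, had -0.02, and Kcnh3, an ELK channel of forebrain, had 0.12, with another probe set at -1.43.

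Among Kv auxiliary subunits, Kcnab1 and Kcnip3 were lower by both of their probe sets. Kcnab1, a beta subunit that inactivates Kv1 channels, gave 2702.7 and 1077.4 units (2.53-fold) and 393.2 and 174.2 units (2.28-fold). Kcnip3, a calcium-binding partner of Kv4 channels that also acts as a transcriptional repressor, gave 1319.6 and 801.5 units (1.66-fold) and 451.9 and 188.3 units (2.42-fold). Kcnab2, the other main Kv1 beta subunit of brain, had 3625.6 and 3382.0 units (-0.11) by its brightest probe set, and its other was at -0.71. Kcnip4 had 909.9 and 1408.0 units (1.53-fold higher), with its other probe sets at 0.35 and -1.0. Kcnip2 had 0.47 and -0.45, and Kcnip1 had -0.31 and -0.17. A further Kcnip1 probe set went the other way, above the floor in the knockout-titled pool alone, at 44.1 and 195.5 units. The small single-span subunit Kcne2, found in brain in choroid plexus, had 75 and 121.7 units (1.61-fold higher), just over the floor, and its relative Kcne4 had 0.53. The 5 choroid plexus markers lay between -0.16 and 0.14, and Kcnj13, an inward rectifier of that tissue, had 439.0 and 375.4 units (-0.24). Kcnab3, the remaining Kv1 beta subunit, had 0.10 and 0.32. In all, 9 of 12 genes were measured, with a median of 0.10. Of these, 2 were higher and 2 lower, beside 12.5% and 18.3% of all genes.

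Inward rectifiers had 12 of 13 measured probe sets below 0, beside the 10881 of 20967 over all genes. Of 15 genes 9 were measured, with 3 at least 1.5-fold lower (beside 18.3% of all genes), 0 higher and a median of -0.24. Kcnj3, a subunit of the G protein-gated (GIRK) channel, gave 3013.3 and 1519.6 units (2.0-fold lower), with its other measured probe sets at -0.43 and -0.12. A further Kcnj3 probe set was above the floor in the knockout-titled pool alone, at 40.5 and 83.2 units. Kcnj9, the partner subunit of Kcnj3, had 1027.3 and 819.7 units (-0.34) and a second probe set at 828.9 and 383.2 units (-1.13). A further Kcnj9 probe set was above the floor in wild-type alone, at 79.5 and 44.3 units. The third neuronal GIRK gene, Kcnj6, was above the floor in the knockout-titled pool alone, at 40.6 and 108.7 units, at least 1.68-fold higher. That bound rests on a single probe set of 5, and the others were below the floor in both pools. Kcnj11, the pore of the ATP-sensitive channel, had 721.9 and 720.1 units (-0.02), while its regulatory partner Abcc8 had 462.3 and 825.5 units (0.82) and a second probe set at 0.13. Kcnj4 and Kcnj14, both inward rectifiers, had -0.04 and -0.17. Kcnj12 was highest of the class at 0.17, and Kcnj2, a classical inward rectifier, was below the floor in both pools.

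Inward rectifiers of glia and vessels are given with the markers of their cell types, which went in both directions. Kcnj10, the main potassium-buffering channel of astrocytes, gave 1716.4 and 1095.0 units (1.58-fold lower). Kcnj16, which assembles with it, gave 310.4 and 193.7 units (1.62-fold), with its other probe set at -0.50. Of 10 astrocyte markers, 4 were at least 1.5-fold lower and 0 higher by the brightest probe set, beside 18.3% and 12.5% of all genes. Their ratios ran from -1.23 (Gfap and S100b) to 0.15 (Slc1a2), with a summed signal of 76047.3 and 70821.0 units. Of the 4, Gfap and S100b were below 0 by every measured probe set. Those of Aqp4 ran from -1.33 to 1.60 and those of Slc1a3 from -1.13 to 0.34. Probe sets of Slc1a2 ran from -0.33 to 3.88 and those of Gja1 from -0.55 to 1.66. Kcnk1, a two-pore channel also found in astrocytes, had 4790.1 and 3788.0 units (-0.35) and a second probe set at -0.46. Kcnj8, the channel of pericytes, reached the floor only in wild-type, at 187.3 and 48.4 units, and was at least 2.94-fold higher there. The pericyte and smooth muscle markers had 5 of 7 measured, from -1.58 (Tagln) to 0.63 (Pdgfrb), and a summed signal of 6452.1 and 5707.9 units. Kcnj8 and Abcc9 form the channel together and are adjacent genes, and Abcc9 had 312.6 and 364.1 units (0.21). Kcnk13, the two-pore channel of microglia, had 190.7 and 179.5 units (-0.10). Of 7 measured markers of microglia 4 were lower and 1 higher by 1.5-fold or more, beside 18.3% and 12.5% of all genes. Their median was -0.93, with ratios from -1.81 (C1qa) to 1.97 (Cx3cr1). The microglia markers on the array had a summed signal of 11061.1 and 10125.4 units. Most of that sum was Csf1r, at 6389.8 and 7830.1 units, so it says little of the other markers. In such bulk RNA, fewer cells of a type and less RNA per cell cannot be told apart, and the part of these markers in the channel values was not tested.

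The two-pore leak channels were mostly within 1.5-fold. Of 12 genes 8 were measured, with a median of -0.28. Of these, 1 was lower and 0 higher, beside 18.3% and 12.5% of all genes. Kcnk4, a mechanosensitive leak channel, gave 222.9 and 75.9 units (2.96-fold lower), its only probe set and near the floor in the knockout-titled pool. Kcnk2, its relative, had 1272.7 and 1084.0 units (-0.24), and Kcnk15 was highest at 0.22. The acid-sensitive channel Kcnk3 had 422.0 and 311.7 units (-0.45), Kcnk12 had -0.32 and Kcnk6 had 0.20. Kcnk10, a further relative of Kcnk4 and Kcnk2, was above the floor in the knockout-titled pool alone, at 47.6 and 148.5 units, at least 2.29-fold higher. Its other probe set was below the floor in both pools.

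Of the 8 genes above the floor on 1 array, 2 had a bound of 1.5-fold or more towards the knockout-titled pool and 4 towards the wild-type pool. Over the 1452 such genes on the array the shares were 17.4% and 14.6%. The wild-type group was Kcna3, a Kv1 subunit, at 108.5 and 63.4 units (at least 1.70-fold), Kcne1l at 189.3 and 38.5 units (at least 2.97-fold), Kcnk7 at 97 and 52.2 units (at least 1.52-fold) and Kcnj8. In each bound the lower array was set at the floor. Kcne1l is a single-span auxiliary subunit gene, and no second probe set was available for it or for Kcna3, Kcnk7 or Kcnj8. Kcnh8 and Kcns1 had bounds of 1.20 and 1.49. The 16 genes below the floor in both pools included Kcnq1, Kcnn4, Kcnj1 and Kcne1, known from epithelia, heart or blood cells.

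Of the noncoding members, Kcnq1ot1, an imprinted nuclear transcript antisense to Kcnq1, was higher by both measured probe sets. It gave 193.0 and 579.4 units (2.98-fold) and 204.8 and 450.6 units (2.18-fold). Its other 4 probe sets were below the floor in both pools, as was Kcnq1 itself at 9.4 and 23.6 units. Kcnmb4os2 had 309.6 and 279.2 units (-0.16), and Kcnmb4os1 was below the floor.

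The agreement between probe sets bears on each value above. Of 32 members with at least 2 measured probe sets, 20 (62.5%) had all of them on the same side of 0, beside 55.6% of 5375 genes. Every measured probe set was lower by 1.5-fold or more for 3 members, Kcnab1, Kcnip3 and Kcnv1, which is 9.38% of them beside 6.64% of such genes on the array. They were all at least 1.5-fold higher for Kcnh1 and Kcnq1ot1, 6.25% beside 3.83%. Kcnd2 and Kcnip4 had probe sets at least 1.5-fold apart in opposite directions, 6.25% beside 5.75%. Of the 16 members past 1.5-fold, 6 rested on 1 measured probe set. The error of a single probe set, estimated as above from the brightest and second brightest of a member, was 0.61, or 1.53-fold. The ratios of those pairs were related across the 32 genes by r = 0.46 (Pearson) and rho = 0.62 (Spearman), as a description.

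**Figure D3:**
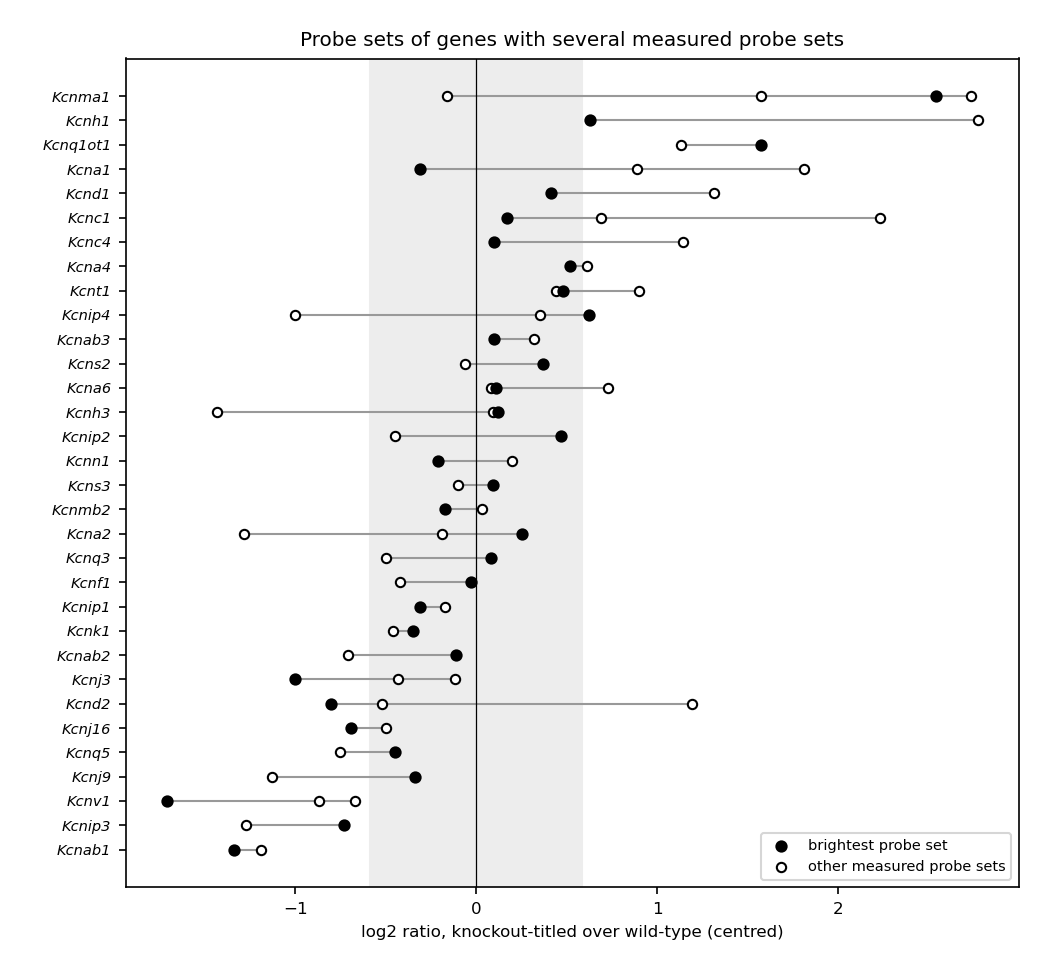
Log2 ratio of knockout-titled over wild-type signal (centred) for every measured probe set of the 32 potassium channel genes with at least 2, in order of their medians; filled points are the brightest probe sets and the grey band marks ratios within 1.5-fold. The probe sets of Kcnma1 run from -0.16 to 2.73, while those of Kcnab1 lie at -1.34 and -1.19.

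**Figure D4:**
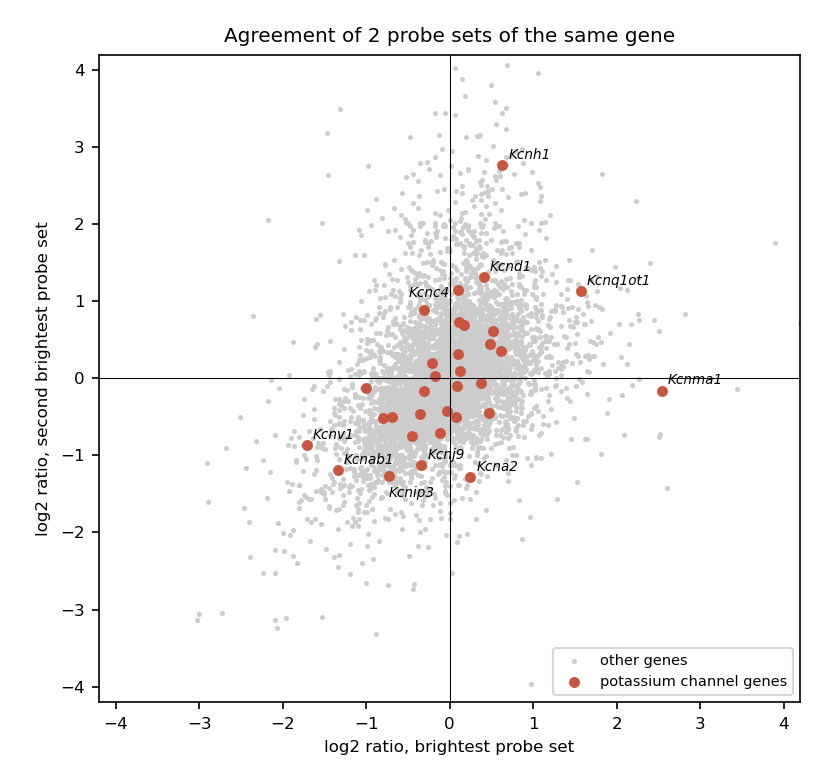
Log2 ratio of the brightest against the second brightest probe set for 32 potassium channel genes (red) and the other genes with at least 2 measured probe sets (grey; 5375 in all, of which 3 lie outside the axes). Kcnv1, Kcnab1 and Kcnip3 lie at the lower left and Kcnq1ot1 at the upper right, whereas Kcnma1 lies near 0 on the second axis.

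The ratios of members did not follow signal strength closely. With all measured probe sets split into 3 equal bins by mean signal, those of the members had medians of -0.10, -0.12 and 0.03 from the lowest to the highest bin, and all probe sets had 0.05, -0.04 and -0.08. From the lowest to the highest bin, 6 of 35, 10 of 39 and 4 of 30 member probe sets were higher by 1.5-fold or more (17.1%, 25.6% and 13.3%), beside 20.8%, 17.0% and 11.6% of all probe sets. Lower by as much were 6, 8 and 6 (17.1%, 20.5% and 20%), beside 17.1%, 19.6% and 17.7%.

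Neighbouring channel genes had ratios of the same sign in some cases and not in others. In the RefSeq gene order of GRCm38.p6, Kcna5, Kcna1 and Kcna6 are consecutive and had 0.64, -0.31 and 0.11. The other measured probe sets of Kcna1 had 0.89 and 1.81, so its sign here depended on the probe set read. Kcnj9 and Kcnj10 are adjacent and had -0.34 and -0.66. Kcnj11 and Abcc8, which encode the pore and the regulatory subunit of the ATP-sensitive channel, are adjacent and had -0.02 and 0.82.

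The partner list holds genes of proteins that bind, anchor, regulate or supply the channels. It also holds hyperpolarization-activated cation channels and genes of the sodium pump and chloride cotransporters, which are not partners in that sense. Of 59 listed genes 44 were measured, of which 9 were higher and 5 lower by 1.5-fold or more, around a median of -0.05. The cation channel group gave 1 of the higher and 1 of the lower, and the pump and cotransporter group 1 of the higher. These shares are 20.5% and 11.4%, beside the 12.5% and 18.3% of all genes given above. The highest were Adam23, a receptor of the LGI proteins, at 0.88 (its other probe set at -0.22), Cntn2, which clusters Kv1 channels beside nodes, at 0.83 (its 3 probe sets between 0.09 and 1.20), and the cotransporter gene Slc12a2 at 0.83. The lowest were Lgi1, a secreted protein that governs axonal Kv1 channels, at -0.93 (5357.1 and 2842.7 units), Amigo1, a Kv2 auxiliary protein, at -0.89, and Ank3, the anchor of the axon initial segment, at -0.76. Amigo1 had other probe sets up to 0.76, and the 5 probe sets of Ank3 ran from -1.56 to 0.34. The Kv4 auxiliary proteins Dpp6 and Dpp10 had -0.06 and -0.53, beside -0.80 for Kcnd2. Of 8 measured G protein and regulator genes of GIRK channels, 1 was higher (Gnb1, 0.65) and 1 lower (Gnb5, -0.64). The hyperpolarization-activated channel genes Hcn2 and Hcn3 had -0.60 and 0.70.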

How the data were processed

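The deposited values are linear signal intensities, 1 per probe set and array; GCOS is named in the submitters' processing notes. Neither a version nor a signal algorithm is given in the sources used here. As deposited, the authors' signals had a mean of 500.0 on each array after trimming 2% at either end, so the arrays had been scaled to 1 mean; the medians were 92.0 and 124.9 units. Per the platform annotation, 34945 probe sets beside the controls named 1 gene, 932 several and 9160 none; only the first kind was used, and 34741 took their current symbol from RefSeq (GRCm38.p6). The centring offset was 0.01. Named members were those past 1.5-fold, the extremes of each class, the 10 brightest, bounds of at least 1.5-fold, probe sets in opposite directions, 6 glial or vascular members and the 3 partners at either end; further members are named as the rest of their class. Members, classes and lists were chosen with earlier results of these data known. The calculations were tested on simulated data. Alternatives covered the floor, scaling, probe set choice and suffixed probe sets. Python 3.11.15 ran with statsmodels 0.14.6 (loess), scipy 1.17.1, matplotlib 3.10.9, pandas 2.3.3 and numpy 2.4.6.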

Additional observations from a re-analysis of the deposited data

How the results depend on the processing

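With 1 array per title, no replicate could be left out and no paired analysis was possible because each title has 1 sample. Without a floor (signals under 1 set to 1) all 84 members entered, of which 11 were at least 1.5-fold higher and 19 lower, beside 17.4% and 27.2% of all genes; the partner list then had 11 lower and a median of -0.16. With the floor at the 60th percentile the member median was -0.01, the same as over all genes. The partner list had 3 lower genes with quantile normalization, with loess and without suffixed probe sets, and its median was 0.11 with quantile normalization, 0.06 with loess and 0.05 by the median of all measured probe sets. The scalings tried left the member counts within 1.5 times of those reported. By the second brightest probe set Kcnma1 was at -0.16, Adam23 at -0.22 and Amigo1 at 0.76; Amigo1 was at 0.66 by the median of its probe sets and at 0.76 without suffixed probe sets. Kcnh1 had 1.70 by the median of its probe sets and 2.77 by the second brightest, Kcnv1 had -0.87 by both, and Kcnj3 had -0.12 by the second brightest. The median of the Kv1, Kv3 and Kv4 alpha subunits ran from 0.14 to 0.71 and that of the inward rectifiers from -0.50 to -0.23 over the alternatives, while the Kv auxiliary median went from 0.10 to -0.45 and that of the calcium- and sodium-activated channels from -0.21 to 0.12 by second brightest probe sets. Leaving out the noncoding members, an alternative chosen after seeing the data, gave 5 higher and 10 lower of 58. The cause of these shifts was not tested.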
